A study of Homo sapiens with 2 samples.

Results

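Ribosome biogenesis genes encode the factors that turn ribosomal RNA transcripts into the small and large ribosomal subunits, mostly in the nucleolus. Here 60 such genes, taken as a list of gene symbols, were described by the mTOR ChIP-seq peaks that the deposited annotation assigned to them. Of 21440 peaks in the list, 50 were assigned to 31 of the 60 genes. Chromatin immunoprecipitation with an antibody against mTOR, the nutrient-sensing kinase, had been done in MDA-MB-231 cells. This established human line comes from a triple-negative breast cancer, was grown with serum, and has no further treatment or genetic change named. Peaks of 1 mTOR library were called against 1 library of input DNA, whose own data were not analysed here. With 1 ChIP library there is no replicate and no test of a condition, and the 95% intervals given below (exact Clopper-Pearson for shares, order-statistic for medians) cover only the spread within this 1 peak list. The depth of the library is unknown, and a peak list cannot show which genes the cells express, so the labelled cell type was not checked against marker genes.

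Ribosome assembly starts while RNA polymerase I transcribes the precursor RNA. Small nucleolar ribonucleoproteins (snoRNPs) guide chemical modification and folding of the precursor, the small-subunit processome then packs and cleaves its first part, and a separate series of factors builds the large subunit. Growth signals through mTOR raise ribosome production, and genes for these factors are known as shared targets of growth-promoting transcription factors such as MYC. The 60 genes were grouped as 8 snoRNP genes, 23 processome genes, 7 genes of late small-subunit maturation, 19 of large-subunit assembly and 3 for abundant nucleolar proteins with several functions (NCL, NPM1 and DDX21).

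The upstream sequences of the genes with the highest promoter scores are shown first, since most of the results concern these start sites. Each is the 250 bases before the start site given by RefSeq for GRCh38.p14, the same assembly as the hg38 of the peaks, written 5′ to 3′ along the gene. Capitals mark letters that match one of the motifs described further on. All 250 bases lay inside a peak assigned to the gene in each of these 5 genes. For NPM1 that is the weaker of its 2 promoter peaks, with a score of 14, the lowest of the 19 promoter peaks of the 60 genes. Its peak of 137, which places it among these 5, lies in intron 1 and outside the printed bases.
WDR36 (chr5:111092098-111092347, plus strand): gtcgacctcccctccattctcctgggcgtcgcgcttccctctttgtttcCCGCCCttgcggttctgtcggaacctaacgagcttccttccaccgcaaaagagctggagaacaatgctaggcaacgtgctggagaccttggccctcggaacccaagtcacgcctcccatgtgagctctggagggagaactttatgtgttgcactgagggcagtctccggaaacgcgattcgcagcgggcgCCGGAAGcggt
NOC3L (chr10:94362940-94363189, minus strand): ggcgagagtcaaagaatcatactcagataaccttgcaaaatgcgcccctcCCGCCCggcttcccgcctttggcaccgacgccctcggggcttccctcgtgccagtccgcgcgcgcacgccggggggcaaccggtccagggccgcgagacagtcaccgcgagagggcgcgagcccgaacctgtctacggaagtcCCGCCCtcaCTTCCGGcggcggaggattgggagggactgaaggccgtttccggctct
WDR43 (chr2:28894417-28894666, plus strand): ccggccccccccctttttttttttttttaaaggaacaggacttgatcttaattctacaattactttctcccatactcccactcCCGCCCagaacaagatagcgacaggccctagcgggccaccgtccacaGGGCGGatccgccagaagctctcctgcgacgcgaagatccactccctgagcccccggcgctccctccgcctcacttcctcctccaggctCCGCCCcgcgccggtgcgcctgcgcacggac
NPM1 (chr5:171387599-171387848, plus strand): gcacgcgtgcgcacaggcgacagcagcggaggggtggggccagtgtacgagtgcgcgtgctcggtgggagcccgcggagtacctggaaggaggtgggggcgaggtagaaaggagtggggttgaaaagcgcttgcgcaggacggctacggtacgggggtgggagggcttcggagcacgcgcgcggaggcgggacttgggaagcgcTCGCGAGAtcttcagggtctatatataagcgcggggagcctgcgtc
TBL3 (chr16:1971803-1972052, plus strand): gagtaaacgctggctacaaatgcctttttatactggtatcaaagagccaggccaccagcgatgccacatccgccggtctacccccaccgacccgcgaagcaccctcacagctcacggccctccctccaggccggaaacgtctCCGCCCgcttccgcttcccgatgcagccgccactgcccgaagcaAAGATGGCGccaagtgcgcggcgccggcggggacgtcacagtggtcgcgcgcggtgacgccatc

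A promoter peak was an assigned peak that reached to within 1 kb of the start, on either side, and 17 of the 60 genes had one (28.3%, interval 17.5 to 41.4%). Across all 19970 protein-coding genes the share was 15.5%, at which 9.3 of 60 genes would carry one. A further 14 genes (23.3%, 13.4 to 36%) had peaks only outside that window, against 26.2% of all genes, and 29 had no assigned peak, so that 51.7% of the genes and 41.7% of all genes had any. The background share of promoter peaks lay below the interval of the 60 genes, and that of distal-only genes lay inside it. Counting only the 10720 peaks with the highest scores left 11 of the 60 genes (18.3%, all genes 7.45%; NIP7, at the limiting score of 61, counts through tie order), and the 2144 highest left 2 (3.33%, all genes 1.57%). These shares are a description and no test. The genes were chosen with earlier results of these data known, and the intervals take genes as independent.

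**Figure D1:**
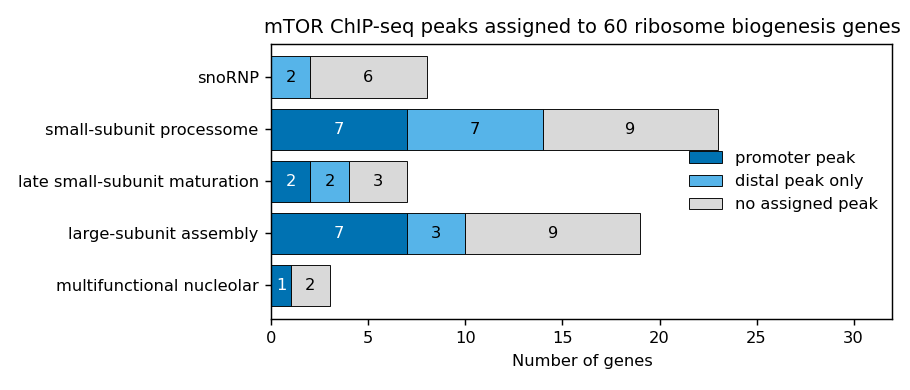
Number of genes (horizontal axis) in each of the 5 roles with a promoter peak, with distal peaks only or with no assigned peak. Promoter peaks are found in 7 of 23 processome and 7 of 19 large-subunit genes and in 0 of the 8 snoRNP genes. The share over all protein-coding genes is 15.5%.

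No snoRNP gene had an assigned promoter peak. The 8 genes encode the box C/D core proteins FBL, the ribose methyltransferase, NOP56 and NOP58, the box H/ACA proteins DKC1, the pseudouridine synthase, NHP2, NOP10 and GAR1, and the snoRNP chaperone NOLC1. A count of 0 of 8 has an exact interval of 0 to 36.9%. At the background share 1.24 of 8 genes would have a peak, so a lower share than elsewhere was not detectable. NOP56 was assigned 4 peaks and NOLC1 1, all outside the window, and the other 6 genes had none. The start of NOP56 nevertheless lay inside a peak, chromosome 20, 2652463 to 2653058, with a score of 59 and a width of 596 bp. The annotation gave that peak to MIR1292, a microRNA gene within NOP56. For the remaining 5 snoRNP genes with a reference start site, the nearest peak of any assignment was 41 kb (NHP2), 43.8 kb (GAR1), 140 kb (FBL), 148 kb (DKC1) or 169 kb (NOP10) away. Over all protein-coding genes with a reference start the median of this distance was 28.3 kb, and 63.5% had a peak within 50 kb. DKC1 is the only one of the 60 genes on the X chromosome, where 2.24% of protein-coding genes had a promoter peak.

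Small-subunit processome genes had a promoter peak in 7 of 23 (30.4%, 13.2 to 52.9%). At the background share of 15.5%, 3.57 of 23 genes would have one, and that share lay inside the interval. WDR36, a subunit of the UTP-B complex, had the highest score of all 60 genes, 507, in a peak of 514 bp centred at 8 bp from the assigned start (chromosome 5, 111091924 to 111092437), which is -168 bp from the RefSeq start used for the sequence. The score has no stated scale and serves only to rank peaks within this list. WDR36 was in place 61 of the 3334 promoter peaks of protein-coding genes. WDR43, a UTP-A subunit, followed with 188 (chromosome 2, 28894268 to 28894693, centred at -187 bp), and TBL3, another UTP-B subunit, with 116 (chromosome 16, 1971599 to 1972338, -85 bp). UTP3, a processome component, had 87 in a peak of 304 bp at -197 bp (chromosome 4, 70688184 to 70688487). UTP20, which encodes a large scaffold protein, had 62 in a peak of 380 bp in exon 1 of 62, at 168 bp (chromosome 12, 101280084 to 101280463). DDX47, an RNA helicase gene, had 48 in 337 bp at 3 bp (chromosome 12, 12813181 to 12813517), and NOP14 had 35 in 327 bp at 59 bp (chromosome 4, 2963184 to 2963510). All 7 centres lay within 197 bp of the assigned start.

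Members of the same processome complex did not share one pattern. In UTP-A, which binds the precursor RNA first, WDR43 was the 1 of 6 genes with a promoter peak, HEATR1, NOL11 and WDR75 had distal peaks only, and UTP4 and UTP15 had none assigned. In UTP-B, WDR36 and TBL3 had promoter peaks and the other 4 of 6 (PWP2, WDR3, UTP6 and UTP18) had no assigned peak at all. With 6 genes each, no difference between the complexes is read from these counts, and the complexes were listed after the values had been seen. Elsewhere in the processome, NOC4L, DDX10, DDX52 and NAT10, an RNA acetyltransferase, had distal peaks only, and WDR46, NOL6 and RRP9 had none assigned.

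Late small-subunit factors had 2 promoter peaks among 7 genes (28.6%, 3.67 to 71%), where 1.09 of 7 genes would have one at the background share. The background of 15.5% lay inside this interval. Both peaks belonged to genes of the RIO family of atypical kinases, which act on the nearly finished small subunit. RIOK2 had a score of 74 in a peak of 303 bp centred 616 bp upstream (chromosome 5, 97183712 to 97184014), and RIOK1 had 24 in 272 bp at 84 bp from the start (chromosome 6, 7389778 to 7390049). LTV1 and RRP12, which act on late precursors of the subunit, had distal peaks only. TSR1, BYSL and NOB1, the endonuclease that forms the end of the mature small-subunit RNA, had none, with the nearest peak of any gene 56.5, 127 and 20.8 kb from their start.

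Large-subunit assembly genes had promoter peaks in 7 of 19 (36.8%, 16.3 to 61.6%), with 8 peaks in all. At the background share of 15.5%, just below this interval, 2.95 of 19 genes would have one. NOC3L, for an assembly factor of early large-subunit precursors, had a score of 229 (chromosome 10, 94362906 to 94363479, 574 bp wide, centred at -253 bp). NOC2L, whose product is also known as an inhibitor of histone acetylation, had 93 in the widest of the 50 peaks, 1608 bp, centred at -518 bp (chromosome 1, 958971 to 960578). NOC3L was the only gene of this role with a promoter score above 100. BRIX1 had 66 in 514 bp at 149 bp (chromosome 5, 34915604 to 34916117). NIP7 had 61 in 385 bp at -613 bp (chromosome 16, 69338707 to 69339091). MRTO4, whose product resembles a ribosomal stalk protein, had 59 in 516 bp at -52 bp (chromosome 1, 19251496 to 19252011) and a second peak of 23 at 965 bp over an AluJo element in intron 1 (19252553 to 19252988). NOP16 had 52 in 500 bp at 15 bp from the assigned start (chromosome 5, 176388663 to 176389162), or -315 bp from the RefSeq start. The helicase gene DDX18 had 45 in 371 bp at -121 bp (chromosome 2, 117814385 to 117814755). RRP1 had its peak of 116 over a CpG island 2595 bp upstream. EBNA1BP2 and NMD3, the export adaptor of the large subunit, had distal peaks only. All 3 genes of the PeBoW complex, PES1, BOP1 and WDR12, were without an assigned peak, as were NOP2, WDR74, RRP1B, RRS1 and the GTPase genes GNL2 and GNL3. A peak assigned to SCX was centred within BOP1, for which no reference start site was given.

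Of the 3 genes for multifunctional nucleolar proteins, 1 had a promoter peak, where 0.465 would have one at the background share. NPM1, which encodes nucleophosmin, had 2 peaks. The stronger had a score of 137 and lay in intron 1 over a CpG island, 696 bp after the start (chromosome 5, 171388308 to 171388782). The weaker, with 14, was centred at -69 bp (171387579 to 171387982). A window of 100 bp kept only the weaker one. NCL, for nucleolin, and the helicase gene DDX21 had none assigned, and the nearest peaks lay 32.4 and 55 kb from their starts.

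**Figure D2:**
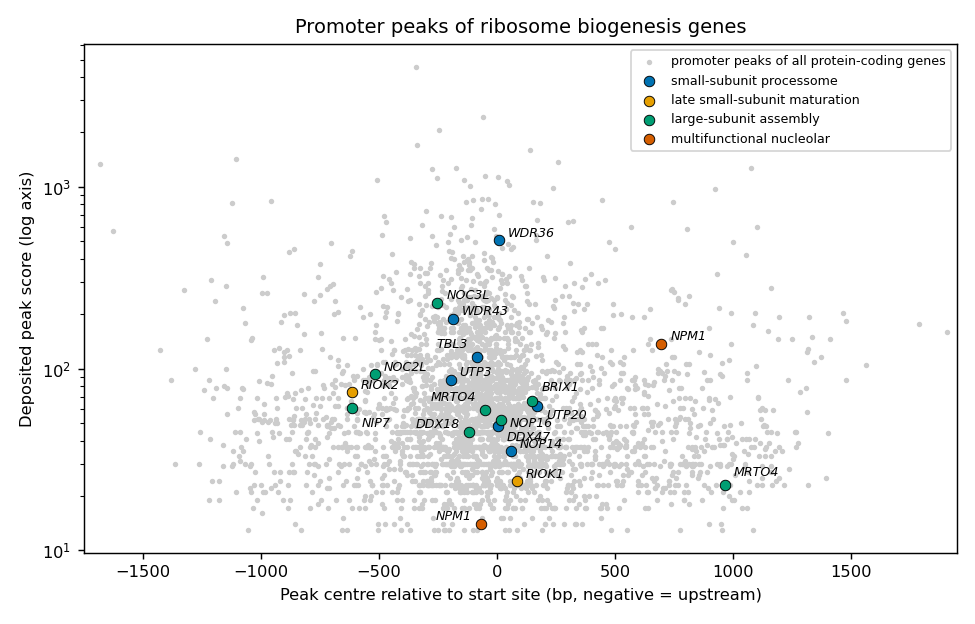
Position of the peak centre relative to the assigned start site in bp (horizontal axis) against the deposited score (vertical log axis) for the 19 promoter peaks of the genes, coloured by role, over the 3334 promoter peaks of protein-coding genes in grey. WDR36 at 507 is the highest coloured point, and NPM1 holds both the lowest, 14, and one of 137 at 696 bp.

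In score, width and position the 19 promoter peaks lay within the range of promoter peaks in general. Scores ran from 14 to 507 with a median of 62 (interval of the median 45 to 116), and the median of all 3334 promoter peaks was 54. Widths ran from 272 to 1608 bp with a median of 426 bp (337 to 514), against 446 bp. Centres ran from -616 to 965 bp with a median of -52 bp (-197 to 84), against -46 bp. Of the 19 centres 10 lay upstream, 8 lay within 100 bp of the start (42.1%, 20.3 to 66.5%, all promoter peaks 28.7%) and 14 within 300 bp (73.7%, 48.8 to 90.9%, all 61.1%). The medians and shares of all promoter peaks fell inside these intervals.

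Between the main roles the promoter peaks overlapped in all 3 measures. Processome peaks had scores from 35 to 507 with a median of 87, and large-subunit peaks from 23 to 229 with a median of 60. Processome peaks were 304 to 740 bp wide (median 380 bp) and large-subunit peaks 371 to 1608 bp (median 507 bp). Distances of the centre from the start had a median of 85 bp (3 to 197) in the processome and 201 bp (15 to 965) in the large-subunit group. There were 7 peaks in the first and 8 in the second group, and the groups overlapped in each measure, so no order of the roles is read from these medians. By the distance of the nearest peak edge from the start, the MRTO4 peak centred at 965 bp, with its edge at 747 bp, was the last one inside the window. The RRP1 peak centred at -2595 bp, with its edge at 2077 bp, was the first one outside.

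Distal peaks numbered 31, assigned to 17 genes, of which 3 (UTP20, DDX47 and DDX18) also had a promoter peak. Their median distance was 37094 bp, and all but 3 lay more than 10 kb from the start. Assignment was to the nearest start, and 5 of the 31 lay inside the gene they were assigned to, 11 inside another protein-coding gene and 15 inside none. DDX10, whose gene spans 276 kb, held 3 of these 5 in its own introns, with scores of 33, 27 and 21. RRP12 had 1 in intron 17 of 31 with a score of 74, and LTV1 had 1 with 13, the lowest of the 50. By contrast, 3 of the 4 NOP56 peaks lay in TMC2, all 3 NAT10 peaks lay in ABTB2 and both EBNA1BP2 peaks lay in CFAP57.

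Among the other distal peaks, those of DDX52, a helicase gene, had 87 at -38721 bp and 51 at -37094 bp, and those of EBNA1BP2 had 69 at -22115 bp and 61 at -35930 bp. NOL11 had a second peak of 86 at -49516 bp, and LTV1 one of 53 at -56734 bp in PHACTR2. A peak of 61 inside NOL11, 12.1 kb after its start, was assigned to SNORA38B. The NAT10 peaks had 45, 37 and 14, at 98993, 107725 and 94055 bp. WDR75 had 37 at -54285 bp, NOC4L 27 at 11896 bp and HEATR1 21 at -18123 bp. Scores under 30 made up 9 of the 31 distal peaks (29%, 14.2 to 48%), against 11.9% of all distal peaks, while 5 were in the top 10% of all peaks (16.1%, 5.45 to 33.7%, all 10.1%). These intervals take peaks of the same gene as independent. DDX10 alone was assigned peaks of 27, 27, 25 and 21, so no excess of low scores is read from them. Distal scores of the genes thus reached from 13, the lowest score in the whole list, to 340, with a median of 51 (30 to 69) against 61 for all distal peaks.

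The highest distal scores belonged to the snoRNP genes NOP56, with 340 at -45963 bp and 262 at -25517 bp, and NOLC1, with 266 at 32848 bp in a peak of 1571 bp over a LOR1b retroviral repeat. NMD3 followed with 261 at -57701 bp and NOL11 with 212 at -16973 bp. Each of these 5 peaks was centred on a repeat, and none lay inside its assigned gene. Over all 31 distal peaks 27 had a repeat at the centre (87.1%, 70.2 to 96.4%), against 76.6% of the 12039 distal peaks of protein-coding genes. L1 elements, the main family of long interspersed repeats, held 12 (38.7%, 21.8 to 57.8%, all distal peaks 40.9%), ERVL-MaLR elements 5 (16.1%, all 9.78%) and Alu elements 4 (12.9%, 3.63 to 29.8%, all 4.39%). Of the promoter peaks 1 of 19, the MRTO4 peak in intron 1, had a repeat named at its centre. The deposited annotation named no repeat or CpG island for any of the 16 peaks in its promoter class. Whether labels of that class can hold a repeat was not tested, so the promoter count is not set against the distal share. The sources used here do not give how reads aligning to several places were treated, and its part in the repeat peaks was not tested.

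**Figure D3:**
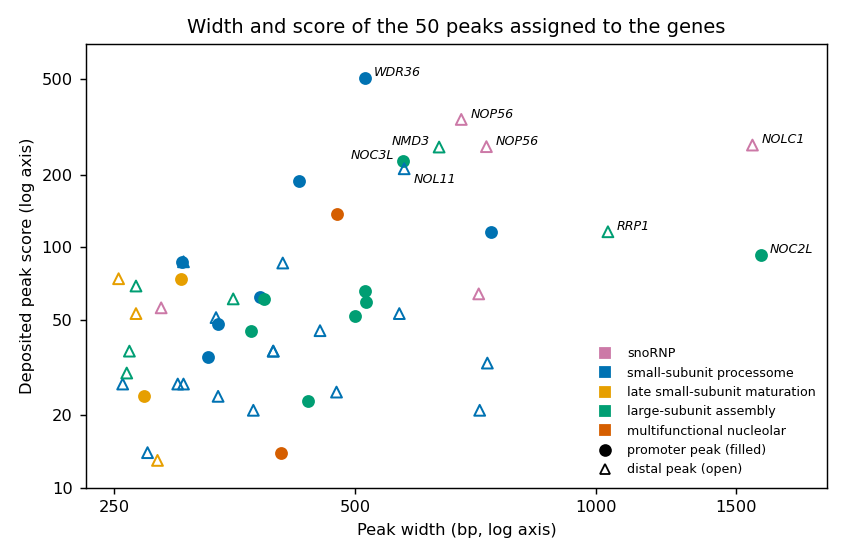
Width in bp (horizontal log axis) against deposited score (vertical log axis) for the 50 peaks, with 19 promoter peaks as filled circles and 31 distal peaks as open triangles, coloured by role. NOC2L (1608 bp), NOLC1 (1571 bp) and RRP1 (1036 bp) are the 3 widest, and the distal peaks of NOP56, NOLC1, NMD3 and NOL11 reach scores of 212 to 340.

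Since each peak was assigned to 1 gene, start sites were also compared with every peak in the list. Reference start sites were given for 52 of the 60 genes. Of these, 19 (36.5%, 23.6 to 51%) had a peak of any assignment within 1 kb, against 19.2% of 15811 protein-coding genes, and 14 starts lay inside a peak (26.9%, all genes 11.2%). The 3 genes gained were NOP56, described above, UTP4 and WDR46. At UTP4 the peak began 129 bp from the start, had a score of 44 and was assigned to CHTF8 (chromosome 16, 69131983 to 69132520). WDR46 had a peak of 56 at 210 bp, assigned to PFDN6, which starts 358 bp away on the other strand (chromosome 6, 33289449 to 33289726). NIP7 had, beside its own peak, one of 62 across its reference start that was assigned to COG8, a gene that starts 208 bp away in the other direction. Within 10 kb of a start there was a peak for 21 of the 52 genes (40.4%), against 32.3% of all genes, a smaller gap than within 1 kb.

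**Figure D4:**
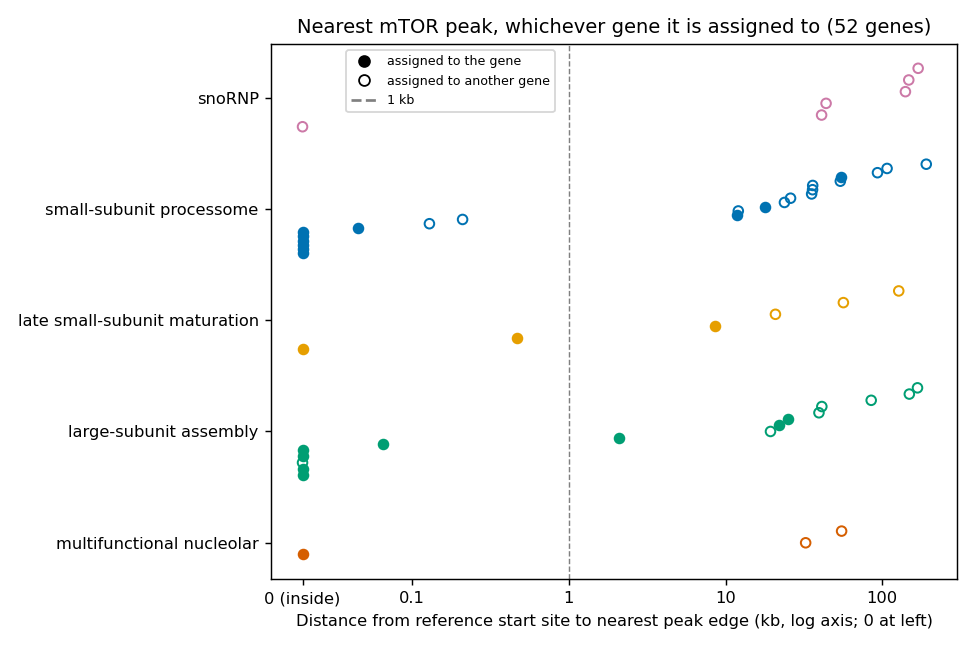
Distance in kb (log axis, 0 drawn at the left) from the reference start site to the edge of the nearest peak for 52 genes by role, filled where the peak was assigned to the gene and open where it was assigned to another. Of the 19 genes left of the dashed line at 1 kb, 4 are open: NOP56, UTP4, WDR46 and NIP7, the last of which also has a promoter peak of its own. The snoRNP genes other than NOP56 lie at 41 kb or more. The median over all protein-coding genes is 28.3 kb.

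A protein-coding gene starting within 1 kb upstream on the opposite strand, a divergent partner, was found for 16 of the 52 genes (30.8%, all protein-coding genes 11.3%). Of these 16 genes 5 had an assigned promoter peak (31.2%), and 11 of the 36 without such a partner had one (30.6%). Over all protein-coding genes the shares were 16.3% of 1794 with a partner and 16.3% of 14017 without. Counts of assigned peaks leave out peaks given to another gene. Such a peak lay within 1 kb of UTP4 and WDR46, which have a partner, and of NOP56, which has no protein-coding one. The near-equal shares are therefore not read as no difference. The 5 pairs with an assigned peak were BRIX1 with RAD1 (207 bp between starts), MRTO4 with EMC1 (281 bp), NIP7 with COG8 (208 bp), NOP14 with GRK4 (165 bp) and NOP16 with HIGD2A (153 bp). A peak at such a pair cannot be told apart as belonging to one or the other gene.

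Motif letters were searched on both strands in the 300 bases from 250 before to 50 after the start, in the same 52 genes and in 15811 protein-coding genes, with the first listed start for each gene. Genes with and without a peak were split by assigned promoter peaks. The 36 without thus include NOP56, UTP4 and WDR46, whose starts lay inside or within 1 kb of a peak assigned to another gene. The series title places mTOR in a complex with RONIN, a zinc-finger transcription factor, so its motif comes first. The core shared by RONIN and ZNF143, ACTACA, was in 9 of the 52 promoters (17.3%, 8.23 to 30.3%). The 8.51% of all genes lay inside this interval. The core was in 4 of 16 promoters with a peak (25%, 7.27 to 52.4%) and 5 of 36 without (13.9%, 4.67 to 29.5%). Its longer form, ACTACA followed after 2 bases by TCCCAG, was in 2 of 52 (3.85%, 0.469 to 13.2%, all genes 1.68%). Both of these genes, DDX47 and NOP14, had a promoter peak, which makes 2 of 16 with a peak (12.5%, 1.55 to 38.3%) and 0 of 36 without (0 to 9.74%). These intervals overlap, and no difference is read from 2 genes. Over all protein-coding genes the longer form was in 3.65% of promoters with a peak and 1.29% of those without. Their upstream sequences are shown because they hold this motif, and were chosen after the matches had been seen; capitals again mark motif letters.
DDX47 (chr12:12813096-12813345, plus strand): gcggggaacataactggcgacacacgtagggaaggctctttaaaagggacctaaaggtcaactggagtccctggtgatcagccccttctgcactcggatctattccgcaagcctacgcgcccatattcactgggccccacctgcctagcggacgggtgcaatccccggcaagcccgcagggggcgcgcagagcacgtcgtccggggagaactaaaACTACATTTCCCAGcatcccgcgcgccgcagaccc
NOP14 (chr4:2963407-2963656, minus strand): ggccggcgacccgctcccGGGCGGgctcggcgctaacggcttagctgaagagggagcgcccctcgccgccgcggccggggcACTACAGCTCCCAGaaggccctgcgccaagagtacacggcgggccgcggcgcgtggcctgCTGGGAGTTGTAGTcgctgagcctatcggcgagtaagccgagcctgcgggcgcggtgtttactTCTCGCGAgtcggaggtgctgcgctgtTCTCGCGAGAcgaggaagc

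In DDX47 the longer motif began 35 bp before the start and lay inside the peak, 31.5 bp from its centre. NOP14 had 2 copies, in opposite orientation, beginning 169 and 109 bp before its start. The NOP14 peak (chromosome 4, 2963184 to 2963510) ended within the nearer copy and did not reach the other. Both promoter peaks had low scores, 48 and 35, below the median of 54 of all promoter peaks. None of the 5 top-scoring genes held the longer motif, and NOC3L alone held the core, 44 bp after its start and outside its peak.

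The other motifs were described in the same way. The MYC and MAX E-box, CACGTG, was in 20 of 52 promoters (38.5%, 25.3 to 53%) and in 8.87% of all genes. It was in 5 of 16 promoters with a peak (31.2%) and in 15 of 36 without (41.7%), and the intervals of the latter shares overlapped (11 to 58.7% and 25.5 to 59.2%). The ETS motif CCGGAAG was in 22 of 52 (42.3%, 28.7 to 56.8%, all genes 14.2%), 9 of 16 with a peak and 13 of 36 without. UTP4 and WDR46, counted as without a peak although another gene's peak lay near their starts, held both E-box and ETS letters. In WDR36 the ETS motif began 11 bp before the start and in NOC3L 48 bp before, inside the peak in both. The YY1 motif AAGATGGCG was in 4 of the 16 promoters with a peak (25%, 7.27 to 52.4%), those of BRIX1, DDX47, NIP7 and TBL3, and in 0 of 36 without (0 to 9.74%). All genes with a peak had it in 4.89% and those without in 2.33%. The intervals of the 16 and the 36 promoters overlapped only from 7.27 to 9.74%. Overlap is no test of a difference, and none was made. Each of the 4 matches lay inside a peak, which for NIP7 was the one assigned to COG8, and in TBL3 it lay 24.5 bp from the peak centre. The letters TCGCGAGA, part of a palindromic promoter element, were in 6 of 52 (11.5%, all 1.74%). These were NPM1 and NOP14, inside their peaks, and LTV1, NMD3, NOL11 and TSR1, which have no promoter peak, or 12.5% of promoters with a peak and 11.1% of those without. The GC box GGGCGG was in 40 of 52 (76.9%, all 58.5%). It was in 62.5% of promoters with a peak (35.4 to 84.8%) and 83.3% without (67.2 to 93.6%), while all genes had 70.6% and 56.1%, the opposite order. The NRF1 motif TGCGCATGC was in 3 of 52 (5.77%, all 2.09%), none of them with a promoter peak. The core matches of DDX47 and NOP14 are parts of their longer matches, and matches to letters do not show binding of the factor.

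**Figure D5:**
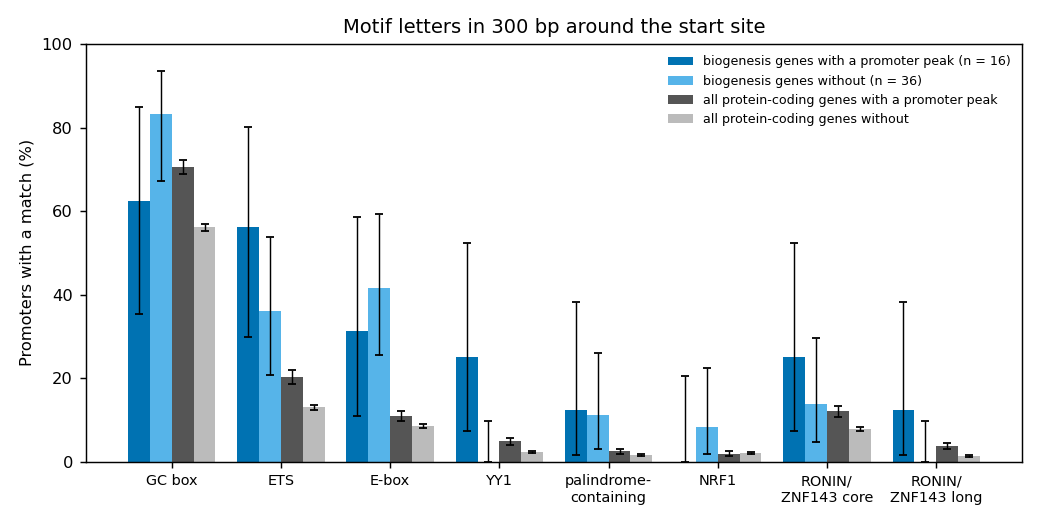
Share of promoters in percent (vertical axis) with each motif in 300 bases around the start. Groups are ribosome biogenesis genes with (n = 16) and without (n = 36) an assigned promoter peak, and all protein-coding genes with and without one. Bars are shares and error lines exact 95% intervals. YY1 letters are in 25% of the first group and 0 of the second, and E-boxes in 31.2% and 41.7%, with intervals that overlap for both motifs. Such overlap is no test of a difference.

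Base composition was close in genes with and without an assigned promoter peak, where those without again include NOP56, UTP4 and WDR46. Median GC content of the promoters was 64% with a peak and 64.2% without one, where all protein-coding genes had 65.7% and 62%. The number of CG pairs in 300 bases had medians of 26 and 25, against 27 and 21 in all genes. Gene spans of the 17 genes with a promoter peak had a median of 17.7 kb, those of the 14 with distal peaks only 29.5 kb and those of the 29 with no peak 14.8 kb.

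Among other genes of the pathway, a second list of 94 factors outside the 60 genes had promoter peaks in 25 (26.6%, 18 to 36.7%), beside the background of 15.5%. The highest scores were those of UTP11, a processome gene, with 441, RPF1, a large-subunit gene, with 250, SURF6 with 214, NOL8 with 191 and NGDN with 156. Of genes that act in the same process, 30 of 85 cytosolic ribosomal protein genes (35.3%, 25.2 to 46.4%) and 11 of 33 genes of the RNA polymerase I and III machinery (33.3%, 18 to 51.8%) had one. The latter, called polymerase genes here, include transcription factor genes such as GTF3C5 and BRF2 beside those of polymerase subunits. The 28.3% of the 60 genes lay between these shares, and all 4 intervals overlapped. Median scores were 62 in the 60 genes, 61.5 in the second list, 69 in ribosomal protein genes and 61 in polymerase genes.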

How the data were processed

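Peaks of 1 mTOR ChIP library, with an input library as reference, were deposited by the authors as an annotated table. Trimmomatic 0.36, BWA 0.7.12, Picard 2.0.1, MACS2 2.1.1.20160309, HOMER 4.11.1 and hg38 are named per the submitters' processing notes; settings, peak threshold and duplicate handling are not given there. The peak score is the authors' deposited score, a whole number. Positions and distances were used as deposited. Peaks of the 60 genes were taken by symbol, and gene counts, other lists and background shares used the deposited Entrez gene number. These numbers were matched to a RefSeq table of GRCh38.p14. Of the genes, 52 of 60 had a promoter sequence there. For 44 peaks of these genes, 34 distances were within 1 bp of those from a reference start.

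A promoter peak overlapped 1 kb either side of the assigned start. Shares have exact Clopper-Pearson 95% intervals and medians exact order-statistic intervals. No test was made. The overlap rule was tested on simulated peaks. The genes, roles and lists were chosen with earlier results of these data known. Text names every gene with an assigned peak, genes whose start lay under another gene's peak, and 5 top genes of the second list. Sequences are those of the 5 top-scoring genes, with DDX47 and NOP14 added after motif matches were seen. Alternatives were the deposited promoter class, a window of 5 kb or 100 bp, the peak centre, the 10720 and 2144 top-scoring peaks, and any peak at a reference start. Analyses used Python 3.11.15 with scipy 1.17.1, pandas 2.3.3, matplotlib 3.10.9 and numpy 2.4.6.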

Additional observations from a re-analysis of the deposited data

How the results depend on the processing

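Of 79 values recomputed under alternatives, 61 stayed within the limits set (a factor of 1.5 for counts, the interval for medians). The 17 genes with a promoter peak were 15 with a window of 100 bp, 19 with 5 kb and 16 in the deposited promoter class, each above the background share for that rule (10.9%, 20.3% and 12%). With 5 kb the share was 31.7% (20.3 to 45%), so the background lay at the lower limit of the interval. The ratio to the background was 2.29 with 100 bp and 1.56 with 5 kb. Most changes came from keeping only high scores, which removes peaks by construction. The 10720 top-scoring peaks, a limit at a score of 61 that falls within ties (NIP7, NOL12, RPS3, GTF3C3 and TWISTNB are at 61), left 11 of the 60 genes (18.3%, background 7.45%), 8 genes with distal peaks only, 4 large-subunit genes, 1 late small-subunit gene, 14 of the second biogenesis list, 17 ribosomal protein genes and 7 polymerase genes. The 2144 top-scoring peaks, a limit at 200, also within ties, left 2 of the 60 genes (WDR36 and NOC3L, background 1.57%), 1 processome, 1 large-subunit, 0 late small-subunit and 0 multifunctional nucleolar genes, 3 of the second list, 1 ribosomal protein gene and 2 polymerase genes, too few to read. The snoRNP count of 0 became 1 with 5 kb (NOP56) and 1 with any peak at a reference start (NOP56), and the late small-subunit count of 2 became 1 with 100 bp. At unknown depth, a gene without a peak is not shown to be unbound. No paired analysis was possible because each group has 1 library.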

Other observations

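By chromosome, the counts were small, and the chromosomes named here were picked after their values were seen, with no test. On chromosome 5, 5 of 7 genes had a promoter peak (WDR36, NPM1, RIOK2, BRIX1 and NOP16, but not NHP2 or UTP15), where 16.1% of all protein-coding genes did. Chromosome 17 had 0 of 5 (UTP6, UTP18, NOL11, DDX52 and TSR1; all genes 22.8%), and chromosomes 3, 11 and 21 had 0 of 3 each (all genes 14.9%, 16.6% and 8.37%). Counts of 0 among so few genes do not show a lower share.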
